A study of Mus musculus with 4 samples.

Results

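Integrins, selectins, the immunoglobulin-like proteins that integrins bind, and receptors for sphingosine 1-phosphate were read in sorted mouse group 3 innate lymphoid cells (ILC3s). The members are the genes whose symbols match those families, 42 of the 19504 genes with a row in the table, and each member had 1 row. Of these, 16 encode integrin alpha subunits, 9 encode integrin beta subunits, and 3 (Itgb1bp1, Itgb1bp2 and Itgb3bp) were caught by their symbols although they encode no integrin subunit. The rule itself reads symbols and no measured value, but the families were picked with earlier results of these data known. Genes of these families without a row were not analysed here.

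The samples were circZbtb20-/- ILC3s, which lack a circular RNA made from the Zbtb20 gene, circZbtb20+/+ wild-type ILC3s, Nr4a1-/- ILC3s, which lack an orphan nuclear receptor induced early in stimulated lymphocytes, and Nr4a1+/+ wild-type ILC3s. All were sorted as lineage-negative cells with high CD90 and low CD45. No treatment is named, and the sources used here do not give the tissue, the strain, the age, the number of mice or how the alleles were made. Each genotype has 1 array, so no value below has a replicate error, and precision is limited by the number of arrays. Values are the deposited log2 expression values, and differences are log2 differences, knockout minus the wild type that shares its title.

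Integrins are pairs of an alpha and a beta subunit that anchor cells to other cells and to the extracellular matrix once talin and kindlin bind the beta tail. Selectins let leukocytes roll on vessel walls by binding sugars on carriers such as PSGL-1, and integrins then bring the cells to arrest on ICAM and VCAM ligands. Receptors for sphingosine 1-phosphate sense the high level of this lipid in blood and lymph and draw lymphocytes out of tissues. ILC3s are mostly tissue-resident, and alpha4 beta7 integrin is a known gut-homing receptor of their precursors.

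The arrays were first read for their content. Nr4a1 was at 11.63 in Nr4a1-/- cells against 18.11 in Nr4a1+/+ cells, and at 15.98 in circZbtb20-/- cells against 19.93, the highest value of the table, in circZbtb20+/+ cells. On the circZbtb20+/+ array 21 rows share this value, so a higher level would not be seen there. Of 7 measured ILC3 markers, 7 reached the array median on every array but that of the Nr4a1 knockout, where 6 did. Their median was 17.63 in circZbtb20-/- cells against 16.21 in circZbtb20+/+ cells, and 5.35 in Nr4a1-/- cells against 15.43 in Nr4a1+/+ cells. In the circZbtb20 comparison these markers split, with 4 higher and 3 lower (Il22 by -1.59, Il1r1 by -1.38 and Ahr by -1.21). The 11 T cell markers had a median of 16.79 (11.64 to 18.92) in Nr4a1-/- cells against 6.42 (5.0 to 8.95) in Nr4a1+/+ cells, and 5.48 (4.60 to 10.62) in circZbtb20-/- cells against 4.72 (3.28 to 9.33) in circZbtb20+/+ cells. The 4 measured thymocyte markers had a median of 10.94 (7.51 to 14.64) in Nr4a1-/- cells against 3.87 (2.40 to 4.35) in Nr4a1+/+ cells. In circZbtb20-/- cells their median was 3.995 against 4.02 in circZbtb20+/+ cells. Of the ILC3 markers 6 were lower in the Nr4a1 comparison, with Il7r at 13.40 against 16.38. Il22 was at 19.93, the highest value of the table, on both arrays of that comparison. This value was shared by 18 rows of the Nr4a1 knockout array and 25 of its wild type, so a difference above it cannot be seen. The Nr4a1 knockout array therefore goes against its cell type label in most ILC3 markers. Il22 was high on it, but whether Il22 differed from the wild type cannot be read. Since this array is the only one of that genotype, no Nr4a1 comparison can be made without it. Its differences below are those of the array labelled Nr4a1 knockout, and an effect of the deletion and the content of the sample cannot be told apart. The circZbtb20 pair differed in content too. The 4 measured markers of pancreatic acinar cells had a median of 4.28 in circZbtb20-/- cells against 14.02 in circZbtb20+/+ cells. The 3 measured markers of ILC2s (group 2 innate lymphoid cells) had medians of 3.81 and 11.74. Between the wild types, Nr4a1 minus circZbtb20, the acinar markers differed by a median of -3.63 and the ILC2 markers by 1.29. The same limit therefore holds for the circZbtb20 comparison. In such bulk samples fewer cells of a type and less RNA per cell cannot be told apart either.

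In what follows a gene is counted if its 2 values were 2-fold or more apart and the larger one was no lower than the median of all rows on its array. The array medians lay between 4.34 and 4.51. No test stands behind such a count. In the circZbtb20 comparison 18 of the 42 members were counted, beside 26.6% of all genes, with 11 higher (15.6% of all genes) and 7 lower (11.1% of all genes). In the Nr4a1 comparison 19 members were counted, beside 30.3% of all genes, with 7 higher (18.3% of all genes) and 12 lower (11.9% of all genes). Between the wild types, Nr4a1 minus circZbtb20, 8 members were counted, beside 8.36% of all genes, with 5 higher (4.65% of all genes) and 3 lower (3.71% of all genes). Over all genes this difference ran from -7.48 (Mllt1) to 7.31 (Uty, a gene of the Y chromosome). The sample titles name no sex, and whether the wild types differ in sex was not tested. The filter on low values passed 32 members in each knockout comparison, 76.2% of them, against 57.0% and 57.4% of all genes in the circZbtb20 and Nr4a1 comparisons. With no filter 19 of the 42 members were counted in the circZbtb20 comparison, beside 28.2% of all genes, and 20 in the Nr4a1 comparison, beside 31.6%. The median difference of the members was 0.03 in the circZbtb20 comparison, beside 0.04 over all genes, and -0.17 in the Nr4a1 comparison, beside 0.00 over all genes. Members thus stood on both sides of 0 in both comparisons. The balance of higher and lower members was not stable: against the other wild type the circZbtb20 knockout had 12 higher and 11 lower. Over all genes 15.1% were higher and 12.0% lower there. With the filter at the 75th percentile the Nr4a1 knockout had 7 higher and 5 lower, beside 20.9% of all genes counted. At a 4-fold size it had 5 and 5, beside 14.3% of all genes. The plot of the members by array shows each value.

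**Figure D1:**
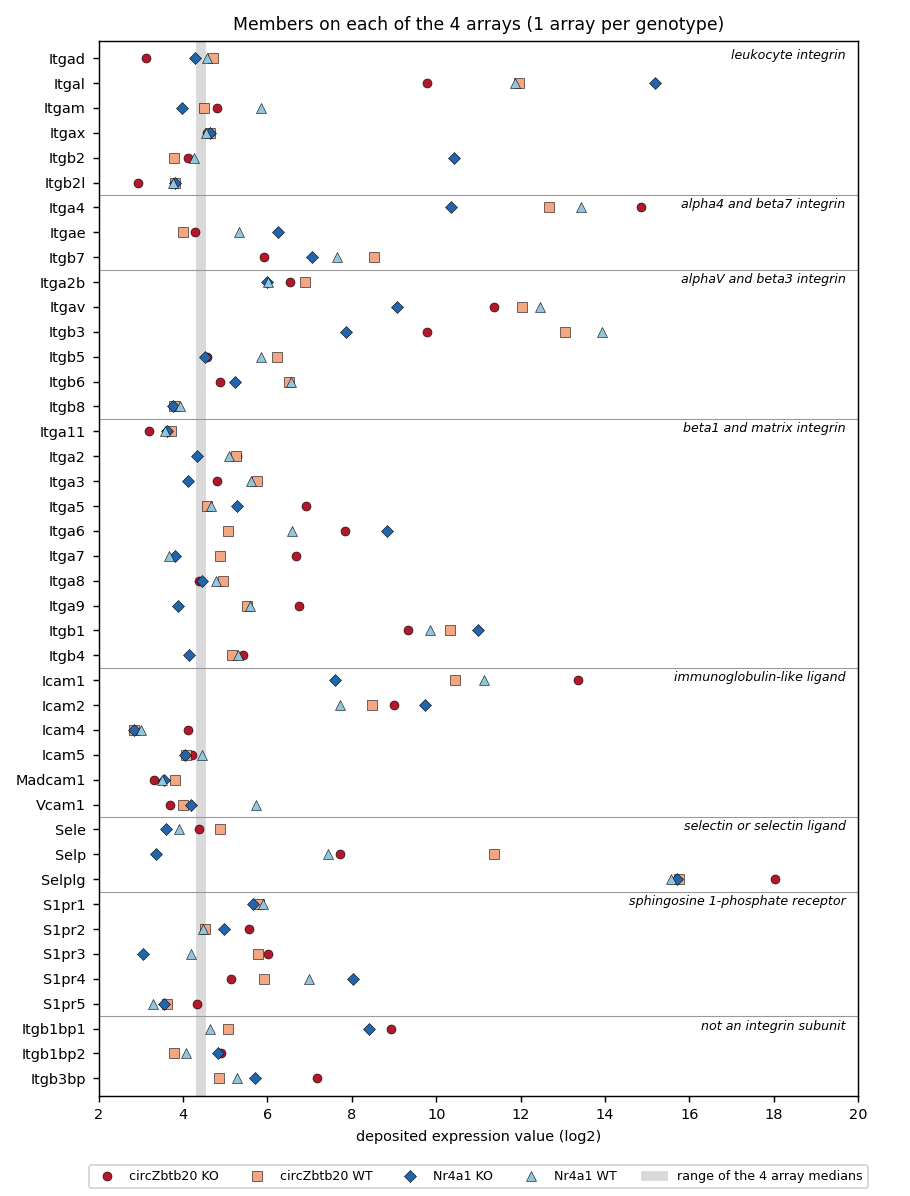
Deposited log2 expression values (horizontal axis) of the 42 members, grouped by role, on the 4 arrays, with 1 point for each array and a grey band for the range of the 4 array medians. Itgb2 is above the band only in the Nr4a1 knockout (10.41), Selplg is highest in the circZbtb20 knockout (18.03), and the 4 points of S1pr1 lie between 5.65 and 5.90.

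The largest separations among leukocyte integrins were in the subunits of LFA-1, the pair of Itgal (CD11a) and Itgb2 (CD18) that binds ICAMs. Itgb2 was at 4.11 in circZbtb20-/- cells against 3.78 in circZbtb20+/+ cells, and at 10.41 in Nr4a1-/- cells against 4.26 in Nr4a1+/+ cells. It was thus near or under the array median everywhere except in the Nr4a1 knockout, with a difference of 6.15 there and of 0.33 in the circZbtb20 comparison. Itgal was at 9.77 in circZbtb20-/- cells against 11.97 in circZbtb20+/+ cells, and at 15.18 in Nr4a1-/- cells against 11.87 in Nr4a1+/+ cells. The wild types were 0.10 apart for Itgal, and the knockouts stood on opposite sides of them, by -2.20 for circZbtb20 and by 3.31 for Nr4a1. LFA-1 is used by T cells, and the array with both subunits high is the one on which all 11 T cell markers were higher than in its wild type, by a median of 9.39. What part the T cell signal has in the LFA-1 values was not tested. Rows of different genes have no common scale, so the low Itgb2 values on 3 arrays do not show that CD18 is scarce there.

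The other leukocyte integrins were near the array medians. Itgam (CD11b, of the complement receptor Mac-1) was at 4.80 in circZbtb20-/- cells against 4.5 in circZbtb20+/+ cells, and at 3.97 in Nr4a1-/- cells against 5.84 in Nr4a1+/+ cells. Its difference in the Nr4a1 comparison was -1.87, but the wild types were 1.34 apart and against the other wild type the difference was only -0.53. Itgad (CD11d) was at 3.13 in circZbtb20-/- cells against 4.72 in circZbtb20+/+ cells, and at 4.28 in Nr4a1-/- cells against 4.58 in Nr4a1+/+ cells. It was counted as lower only in the circZbtb20 comparison, by -1.59, from a value just above the array median. Itgax (CD11c), a marker of dendritic cells, stayed between 4.55 and 4.64 on all 4 arrays. These 3 genes follow each other directly on chromosome 7 in the RefSeq gene table, yet no array set all 3 apart in 1 direction. Itgb2l, a beta2-like gene, was under the median on every array. All 5 dendritic cell markers counted neither way in either comparison. Of 5 measured macrophage and monocyte markers 4 were lower in the Nr4a1 knockout, with a median difference of -2.61 beside the value of Itgam. In the Nr4a1 wild type 3 of these markers were higher than in the other wild type and 0 lower, by a median of 1.68. Against the circZbtb20 wild type the Nr4a1 knockout had a median difference of -1.06 in them. Their part in the Itgam values was not tested.

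Subunits of the alpha4 and beta7 integrins did not run together. Itga4 pairs with Itgb7 into the receptor for MAdCAM-1 and with Itgb1 into the receptor for VCAM-1. It was at 14.85 in circZbtb20-/- cells against 12.67 in circZbtb20+/+ cells, and at 10.35 in Nr4a1-/- cells against 13.42 in Nr4a1+/+ cells. The circZbtb20 knockout was highest and the Nr4a1 knockout lowest of the 4 arrays, with differences of 2.18 and -3.07. Itgb7 was at 5.92 in circZbtb20-/- cells against 8.53 in circZbtb20+/+ cells, and at 7.05 in Nr4a1-/- cells against 7.66 in Nr4a1+/+ cells. It was lowest in the circZbtb20 knockout, by -2.61, on the array where Itga4 was highest, and its difference of -0.61 in the Nr4a1 comparison was not counted. Itgae (CD103), the alpha subunit that pairs with beta7 and binds E-cadherin on epithelium, was at 4.29 in circZbtb20-/- cells against 3.99 in circZbtb20+/+ cells, and at 6.24 in Nr4a1-/- cells against 5.33 in Nr4a1+/+ cells. Its wild types differed by 1.34, more than either knockout differed from its own, and it was counted in neither comparison.

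Of the 6 subunits of the alphaV and beta3 group, 3 were lower and 0 higher in the circZbtb20 comparison, beside 11.1% and 15.6% of all genes. In the Nr4a1 comparison 4 were lower and 0 higher, beside 11.9% and 18.3% of all genes. Itgb3, which pairs with alphaV into the vitronectin receptor, was at 9.78 in circZbtb20-/- cells against 13.05 in circZbtb20+/+ cells, and at 7.86 in Nr4a1-/- cells against 13.92 in Nr4a1+/+ cells. Both knockouts lay under both wild types, by -3.27 and -6.06 within the pairs, and the wild types were 0.87 apart. Itgav was at 11.38 in circZbtb20-/- cells against 12.04 in circZbtb20+/+ cells, and at 9.07 in Nr4a1-/- cells against 12.45 in Nr4a1+/+ cells. Its difference was -3.38 in the Nr4a1 comparison, while that of -0.66 in the circZbtb20 comparison did not reach 2-fold, although it was -1.07 against the other wild type and was counted as lower after quantile normalization.

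Further partners of alphaV were lower in both knockouts. Itgb5, used with alphaV on many adherent cells, was at 4.56 in circZbtb20-/- cells against 6.22 in circZbtb20+/+ cells, and at 4.53 in Nr4a1-/- cells against 5.84 in Nr4a1+/+ cells. Itgb6, an epithelial subunit that activates TGF-beta with alphaV, was at 4.87 in circZbtb20-/- cells against 6.51 in circZbtb20+/+ cells, and at 5.24 in Nr4a1-/- cells against 6.57 in Nr4a1+/+ cells. Both genes were lower in each knockout than in either wild type, by -1.66 and -1.64 in the circZbtb20 comparison and by -1.31 and -1.33 in the Nr4a1 comparison, but the knockout values were within 1 log2 unit of their array medians. Itgb8 was under the median on every array. Itga2b, the platelet partner of beta3, lay between 5.98 and 6.88 and was counted in neither comparison. The 4 measured platelet and megakaryocyte markers ranged over 2.61 to 6.07 in circZbtb20-/- cells against 2.96 to 5.26 in circZbtb20+/+ cells, and over 2.82 to 4.72 in Nr4a1-/- cells against 2.81 to 6.30 in Nr4a1+/+ cells. Pf4 reached the median on all 4 arrays and Gp9 on 3 of them, while Ppbp and Gp5 were under it on all 4. Gp9 was counted as higher in the circZbtb20 knockout, by 1.21. Pf4 was counted as lower in the Nr4a1 knockout, by -1.58, with the wild types 1.04 apart. Markers of ILC2s and of pancreatic acinar cells were also lower in both knockouts, with all 3 measured ILC2 markers lower by medians of -8.16 and -5.53, and all 4 acinar markers by -9.33 and -7.32, in the circZbtb20 and Nr4a1 comparisons. The part of the platelet, ILC2 and acinar markers in the values of this integrin group was not tested.

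Among integrins of the beta1 family and other matrix receptors, the circZbtb20 knockout had 4 of 10 higher and 0 lower. In the Nr4a1 comparison 2 were higher and 3 lower. Over all genes the circZbtb20 comparison gave 15.6% higher and 11.1% lower, and the Nr4a1 comparison 18.3% and 11.9%. Itga6, a laminin receptor subunit, was at 7.84 in circZbtb20-/- cells against 5.06 in circZbtb20+/+ cells, and at 8.84 in Nr4a1-/- cells against 6.58 in Nr4a1+/+ cells. Each knockout was above both wild types, by 2.78 and 2.26 within the pairs, but the wild types themselves were 1.52 apart. Itga5, the alpha subunit of the classical fibronectin receptor, was at 6.91 in circZbtb20-/- cells against 4.56 in circZbtb20+/+ cells, and at 5.29 in Nr4a1-/- cells against 4.67 in Nr4a1+/+ cells. It was higher in the circZbtb20 knockout by 2.35, with the wild types only 0.11 apart, and its 0.62 in the Nr4a1 comparison was not counted. Itga7, a laminin receptor subunit best known from muscle, was at 6.68 in circZbtb20-/- cells against 4.88 in circZbtb20+/+ cells, and at 3.80 in Nr4a1-/- cells against 3.66 in Nr4a1+/+ cells. The circZbtb20 knockout was highest, by 1.80, and the Nr4a1 pair lay under its medians.

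Itgb1, the subunit shared by all beta1 integrins, was at 9.33 in circZbtb20-/- cells against 10.32 in circZbtb20+/+ cells, and at 10.98 in Nr4a1-/- cells against 9.85 in Nr4a1+/+ cells. Its -0.99 in the circZbtb20 comparison fell just short of 2-fold and was counted as lower after quantile normalization of the columns, and its 1.13 in the Nr4a1 comparison was counted as higher but was 0.66 against the other wild type and was not counted after that normalization. Itga3, a laminin receptor subunit of epithelia, was at 4.80 in circZbtb20-/- cells against 5.76 in circZbtb20+/+ cells, and at 4.13 in Nr4a1-/- cells against 5.62 in Nr4a1+/+ cells. Itgb4, the epithelial partner of alpha6, was at 5.41 in circZbtb20-/- cells against 5.17 in circZbtb20+/+ cells, and at 4.14 in Nr4a1-/- cells against 5.30 in Nr4a1+/+ cells. In the Nr4a1 knockout both were under the array median and lower than in its wild type, by -1.49 and -1.16, and Itgb4 was no longer counted when each array was centred on its median. On that array all 5 epithelial markers were lower too, by a median of -3.05, and their part in these values was not tested. Itga2 and Itga8, subunits of a collagen receptor and of an RGD-binding receptor, were counted in neither comparison, and Itga11 was under the median throughout.

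The members counted in the Nr4a1 comparison and in the circZbtb20 comparison overlapped in 10 genes, which is 10 of 19 and 10 of 18. These comparisons share no array. Of the 10, 6 ran the same way (Itga6 and Itgb1bp1 higher, Itgb3, Itgb5, Itgb6 and Selp lower) and 4 ran opposite ways. Over all genes 2807 were counted in both. They were 47.6% of those counted in the Nr4a1 comparison and 54.1% of those in the circZbtb20 comparison. Of them 59.1% ran the same way, so the members' shares among counted genes lie near the background. Counted in both were 23.8% of the members, beside 14.4% of all genes. Itgal was lower in the circZbtb20 knockout and higher in the Nr4a1 knockout. Icam1, Itga4 and Itga9 were higher in the circZbtb20 knockout and lower in the Nr4a1 knockout. A further 17 members were counted in 1 comparison alone and 15 in neither. Of all genes 26.6% were counted in the circZbtb20 comparison and 30.3% in the Nr4a1 comparison.

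**Figure D2:**
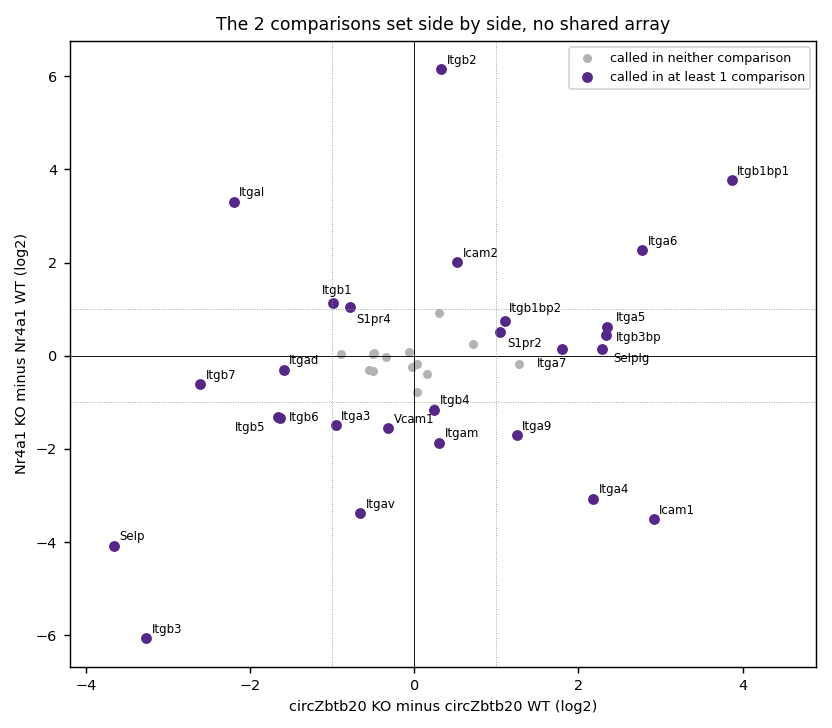
Log2 difference of each member in the circZbtb20 comparison (horizontal axis) and in the Nr4a1 comparison (vertical axis), with dotted lines at the 2-fold size and purple points for the 27 members counted in at least 1 of them. Icam1, Itga4 and Itga9 lie at the lower right, Itgal at the upper left, and Itgb3 and Selp at the lower left.

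The bases upstream of the 3 genes that were higher in the circZbtb20 knockout and lower in the Nr4a1 knockout are shown, since members that ran together could share letters there. They are the 250 bases before the gene start in RefSeq, build GRCm38.p6, read in the direction of the gene, and capitals mark a match to an NF-kB-like motif.
Icam1, chr9:21015690-21015939, + strand: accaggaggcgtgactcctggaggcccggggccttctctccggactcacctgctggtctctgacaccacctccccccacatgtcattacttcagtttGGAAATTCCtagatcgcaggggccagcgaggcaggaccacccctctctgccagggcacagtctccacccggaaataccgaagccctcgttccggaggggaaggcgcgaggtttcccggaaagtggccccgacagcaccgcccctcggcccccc
Itga4, chr2:79255176-79255425, + strand: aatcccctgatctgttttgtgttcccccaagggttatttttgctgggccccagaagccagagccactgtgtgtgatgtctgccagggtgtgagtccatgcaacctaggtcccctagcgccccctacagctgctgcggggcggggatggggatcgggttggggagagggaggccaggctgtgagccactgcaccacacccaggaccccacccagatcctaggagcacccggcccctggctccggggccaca
Itga9, chr9:118711442-118711691, + strand: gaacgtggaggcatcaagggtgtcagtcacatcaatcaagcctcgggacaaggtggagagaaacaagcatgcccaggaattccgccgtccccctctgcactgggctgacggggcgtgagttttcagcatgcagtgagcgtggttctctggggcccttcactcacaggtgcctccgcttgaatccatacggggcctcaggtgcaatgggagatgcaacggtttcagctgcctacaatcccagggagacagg
The motif searched was GGANNTTCC on both strands, where N is any base, and 3.59% of the 32851 upstream windows in the RefSeq table hold it. Icam1 holds it as GGAAATTCC, which matches the motif on either strand, with its first base 153 bases before the start. Itga4 and Itga9 do not hold these letters in this window. The site of NR4A monomers, AAAGGTCA on either strand, is in 1.34% of all windows and in 0 of the 31 windows found for 29 members. The only other members with the NF-kB-like letters were Sele and Madcam1. A match describes letters and is not evidence of binding.

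Icam1, the inducible ligand of LFA-1 and Mac-1, was the ligand with the widest range. It was at 13.37 in circZbtb20-/- cells against 10.45 in circZbtb20+/+ cells, and at 7.61 in Nr4a1-/- cells against 11.12 in Nr4a1+/+ cells. The wild types were 0.67 apart and lay between the knockouts, which differed from them by 2.92 and -3.51. Itga9, a subunit that binds tenascin and VCAM-1, was at 6.76 in circZbtb20-/- cells against 5.51 in circZbtb20+/+ cells, and at 3.87 in Nr4a1-/- cells against 5.58 in Nr4a1+/+ cells. Its wild types were 0.07 apart, with differences of 1.25 and -1.71, the second one to a value under the array median.

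Icam2, a ligand of LFA-1 present on leukocytes and endothelium, was at 8.99 in circZbtb20-/- cells against 8.47 in circZbtb20+/+ cells, and at 9.73 in Nr4a1-/- cells against 7.72 in Nr4a1+/+ cells. It was higher by 2.01 in the Nr4a1 comparison and by 0.52, not counted, in the circZbtb20 comparison. Vcam1, the endothelial and stromal ligand of alpha4 beta1, was at 3.68 in circZbtb20-/- cells against 4.0 in circZbtb20+/+ cells, and at 4.18 in Nr4a1-/- cells against 5.73 in Nr4a1+/+ cells. It reached the median on the Nr4a1 wild-type array alone, so its -1.55 in the Nr4a1 comparison became 0.18 against the other wild type. Icam4, Icam5 and Madcam1 were under the median on all 4 arrays. Icam1, Icam4 and Icam5 are direct neighbours on chromosome 9 with S1pr2 nearby, and of these 4 genes only Icam1 and S1pr2 were counted in either comparison.

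Selplg and Selp stood apart on different arrays. Selplg encodes PSGL-1, the main leukocyte ligand of P-selectin. It was at 18.03 in circZbtb20-/- cells against 15.74 in circZbtb20+/+ cells, and at 15.70 in Nr4a1-/- cells against 15.56 in Nr4a1+/+ cells. The circZbtb20 knockout was 2.29 above its wild type, while the other 3 arrays lay within 0.18 of each other. Selp, P-selectin itself, is stored in platelets and endothelial cells and was at 7.72 in circZbtb20-/- cells against 11.38 in circZbtb20+/+ cells, and at 3.35 in Nr4a1-/- cells against 7.43 in Nr4a1+/+ cells. Its differences were -3.66 and -4.08, but the wild types differed by -3.95, and against the other wild type the circZbtb20 knockout was higher, by 0.29. The wild types thus lay as far apart as the members of each pair. The bases upstream of Selp, shown because its values split the wild types, hold neither motif.
Selp, chr1:164115014-164115263, + strand: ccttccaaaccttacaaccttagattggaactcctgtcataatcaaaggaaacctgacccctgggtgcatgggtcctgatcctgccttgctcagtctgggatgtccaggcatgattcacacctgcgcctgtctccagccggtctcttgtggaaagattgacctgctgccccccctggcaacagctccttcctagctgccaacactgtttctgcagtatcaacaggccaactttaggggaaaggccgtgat
Cdh5, which encodes VE-cadherin, was at 6.85 in circZbtb20-/- cells against 9.22 in circZbtb20+/+ cells, and at 3.34 in Nr4a1-/- cells against 7.25 in Nr4a1+/+ cells. This endothelial marker was, like Selp, highest in circZbtb20+/+ cells and lowest in Nr4a1-/- cells, and so were Kdr and Tie1. Tek and Pecam1 were instead highest in circZbtb20-/- cells, at 4.89 and 10.87 against 4.27 and 10.37 in circZbtb20+/+ cells. Tek was lowest in Nr4a1+/+ cells, at 2.89. Of the 5 endothelial markers 0 were higher and 1 was lower in the circZbtb20 comparison, with a median of -0.18, and 0 were higher and 3 lower in the Nr4a1 comparison, with a median of -2.09. Between the wild types 2 were lower and 0 higher in the Nr4a1 wild type, with a median of -1.30. Their values ranged over 4.89 to 10.87 in circZbtb20-/- cells against 4.27 to 10.37 in circZbtb20+/+ cells, and over 2.92 to 8.48 in Nr4a1-/- cells against 2.89 to 10.57 in Nr4a1+/+ cells. Their part in the Selp values was not tested. Sele, E-selectin of activated endothelium, lay between 3.59 and 4.88 and was counted in neither comparison.

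**Figure D3:**
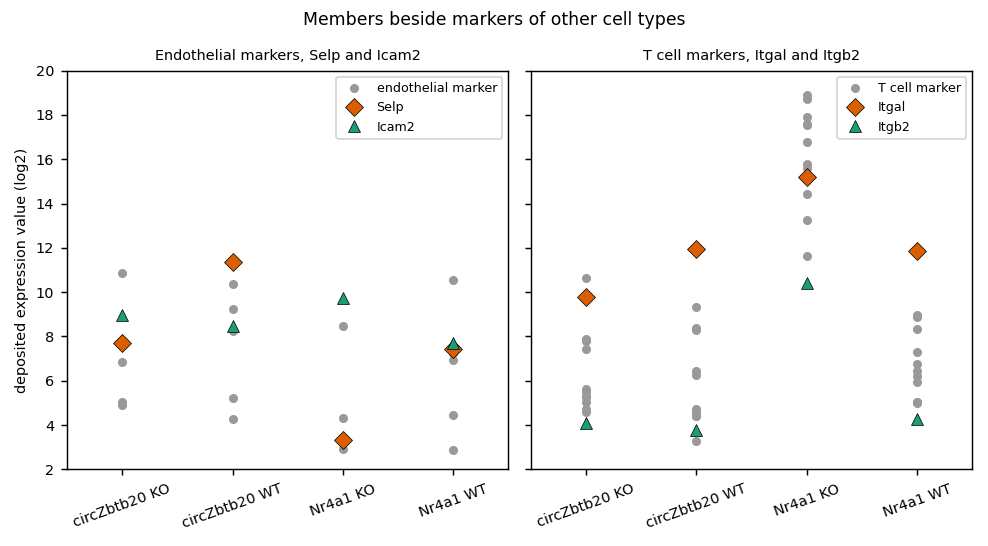
Deposited log2 values (vertical axis) on the 4 arrays for Selp and Icam2 beside 5 endothelial markers (left) and for Itgal and Itgb2 beside 11 T cell markers (right), 1 point for each gene and array. Selp is lowest in the Nr4a1 knockout (3.35), and Itgb2 and the T cell markers are highest there.

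Among the 5 receptors for sphingosine 1-phosphate, 1 was counted as higher in each comparison and 0 as lower. The matching shares of the whole table were 15.6% (higher) and 11.1% (lower) for circZbtb20, then 18.3% and 11.9% for Nr4a1. With only 5 receptors, these counts cannot be told apart from such shares. S1pr1, the receptor that drives exit of lymphocytes into lymph and blood, was at 5.78 in circZbtb20-/- cells against 5.81 in circZbtb20+/+ cells, and at 5.65 in Nr4a1-/- cells against 5.90 in Nr4a1+/+ cells. Its 4 values spanned less than 2-fold. S1pr4, a lymphoid and myeloid receptor, was at 5.13 in circZbtb20-/- cells against 5.91 in circZbtb20+/+ cells, and at 8.03 in Nr4a1-/- cells against 6.98 in Nr4a1+/+ cells. Its 1.05 in the Nr4a1 comparison was no wider than the 1.07 between the wild types, and it was not counted after quantile normalization. S1pr2, which opposes migration through G12 and G13 proteins, was at 5.57 in circZbtb20-/- cells against 4.53 in circZbtb20+/+ cells, and at 4.98 in Nr4a1-/- cells against 4.48 in Nr4a1+/+ cells. It was higher in the circZbtb20 knockout by 1.04, just past the 2-fold size. S1pr3, widely present in vessels, was at 6.02 in circZbtb20-/- cells against 5.78 in circZbtb20+/+ cells, and at 3.06 in Nr4a1-/- cells against 4.19 in Nr4a1+/+ cells. Its wild types differed by -1.59, and it was counted in neither comparison. In the circZbtb20 comparison its difference was 0.24, and in the Nr4a1 comparison, at -1.13, both arrays were under their medians. S1pr5, a receptor of NK cells, was under the median on every array.

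The 3 members that are not integrin subunits were all higher in the circZbtb20 knockout. Itgb1bp1 encodes ICAP-1, which binds the beta1 tail and holds the integrin inactive, and was at 8.93 in circZbtb20-/- cells against 5.06 in circZbtb20+/+ cells, and at 8.40 in Nr4a1-/- cells against 4.63 in Nr4a1+/+ cells. Both knockouts were clear of both wild types, by 3.87 and 3.77 within the pairs, with the wild types 0.43 apart. Itgb3bp, a centromere protein also known as CENP-R, was at 7.18 in circZbtb20-/- cells against 4.85 in circZbtb20+/+ cells, and at 5.71 in Nr4a1-/- cells against 5.27 in Nr4a1+/+ cells. It was higher by 2.33 in the circZbtb20 comparison and not counted in the Nr4a1 comparison. Itgb1bp2 (melusin), a muscle chaperone, was at 4.89 in circZbtb20-/- cells against 3.78 in circZbtb20+/+ cells, and at 4.82 in Nr4a1-/- cells against 4.07 in Nr4a1+/+ cells. Its 1.11 in the circZbtb20 comparison was 0.82 against the other wild type, under the 2-fold size. Without these genes, 8 of 39 members were higher and 7 lower in the circZbtb20 comparison, and 6 were higher and 12 lower in the Nr4a1 comparison, beside the shares of all genes given above (15.6% and 11.1%, then 18.3% and 11.9%).

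**Figure D4:**
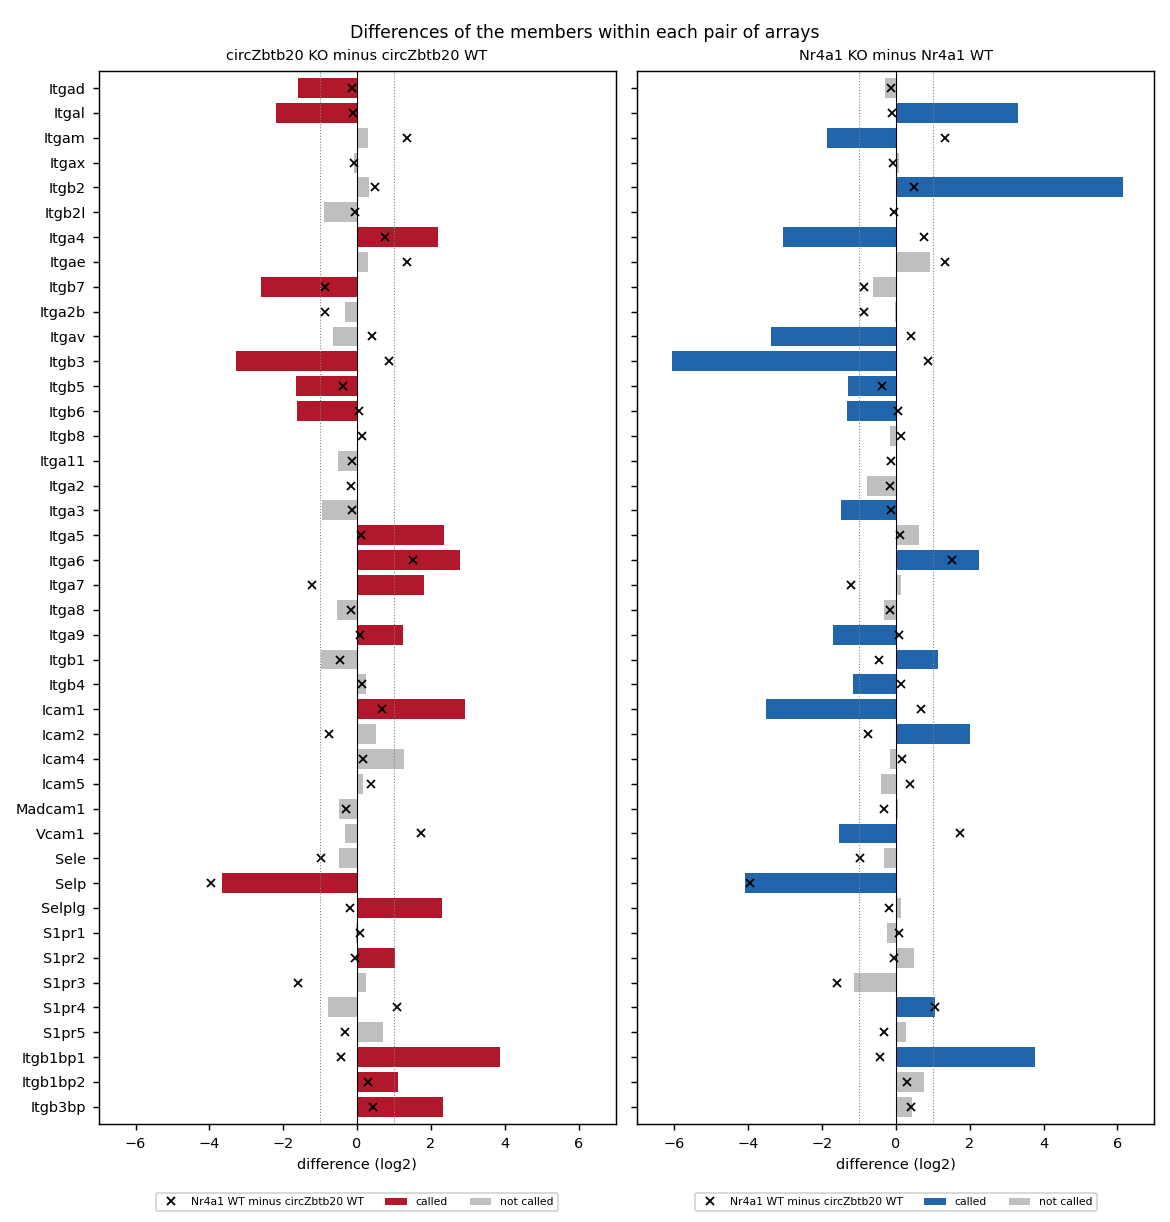
Log2 differences (horizontal axes) of the 42 members in the circZbtb20 comparison (left) and in the Nr4a1 comparison (right), as coloured bars where the gene was counted and grey bars where it was not, with crosses for the difference between the wild types and dotted lines at the 2-fold size. The bars of Itgb3, Itgb1bp1 and Icam1 are far longer than the distance of their crosses from 0, while for Selp the cross lies beside the bar. For Itgb2 this holds on the right only, since its bar on the left (0.33) is shorter than the distance of its cross (0.48).

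A stricter count asked for a 2-fold difference the same way against both wild types. It held for 16 members of the circZbtb20 knockout, beside 20.1% of all genes, and for 16 of the Nr4a1 knockout, beside 24.2% of all genes. In the circZbtb20 knockout 10 members were higher (12.2% of all genes) and 6 lower (7.91% of all genes). In the Nr4a1 knockout 6 were higher (15.6% of all genes) and 10 lower (8.63% of all genes). The only fit with an error used limma with both wild types as 1 group, so that their difference alone sets a gene's residual error. The fit combined that error (1 degree of freedom) with a prior error estimated over all genes (2.54 degrees of freedom). At an adjusted p under 0.05 by limma it called 0 of 42 members in the circZbtb20 comparison, and 0% of all genes, with 19 members and 24.0% of all genes at an unadjusted p under 0.05. In the Nr4a1 comparison limma called 6 members, beside 11.2% of all genes, namely Itgb2 (adjusted p = 0.0173), Itgb3 (0.0233), Itgal (0.0243), Itgb1bp1 (0.0264), Itgav (0.0292) and Icam1 (0.0368). These p-values cannot separate the genotype from anything else particular to 1 array, such as the T cell markers at a median of 16.79.

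Genes that act with these families were read from 6 lists, and their counts stand beside 15.6% of all genes higher and 11.1% lower in the circZbtb20 comparison, and 18.3% higher and 11.9% lower in the Nr4a1 comparison. Of 28 genes of integrin activation and adhesion signalling, the circZbtb20 knockout had 4 higher and 7 lower at a median difference of -0.04. The Nr4a1 knockout had 14 higher and 6 lower at a median difference of 0.78. Fermt3, the kindlin of blood cells, was at 5.06 in circZbtb20-/- cells against 5.86 in circZbtb20+/+ cells, and at 9.22 in Nr4a1-/- cells against 5.14 in Nr4a1+/+ cells. Rassf5, which links the GTPase RAP1 to LFA-1, was at 8.64 in circZbtb20-/- cells against 5.76 in circZbtb20+/+ cells, and at 11.47 in Nr4a1-/- cells against 5.90 in Nr4a1+/+ cells. These genes of leukocyte adhesion thus had their highest value on the array where Itgal and Itgb2 had theirs. Parvg, a parvin of blood cells, differed there by 3.79, and Fermt2, the kindlin of adherent cells, by -3.84.

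Of 17 matrix ligands of integrins 7 were lower and 0 higher in the circZbtb20 comparison, at a median of -0.69, beside 11.1% of all genes lower. In the Nr4a1 comparison 10 were lower and 0 higher, at a median of -1.21, beside 11.9% of all genes lower. The wild types differed in this list too, with 5 lower and 1 higher in the Nr4a1 wild type. Fn1, fibronectin, was at 4.2 in circZbtb20-/- cells against 7.43 in circZbtb20+/+ cells, and at 4.14 in Nr4a1-/- cells against 6.18 in Nr4a1+/+ cells. Col3a1, a fibrillar collagen of fibroblasts, differed by -3.34 and -2.42 in the circZbtb20 and Nr4a1 comparisons, and Thbs1, thrombospondin, by -0.69 and -4.66. Between the wild types Fn1 differed by -1.25, Col3a1 by -1.98 and Thbs1 by 1.67. Tgfb1, whose latent form alphaV integrins activate, differed by -3.31 and -0.51. The 4 measured fibroblast markers, of which these lists share Col1a1, Col1a2 and Col3a1, had a median difference of -1.64 in the circZbtb20 comparison and of -2.48 in the Nr4a1 comparison, and their part was not tested.

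Of 19 other adhesion molecules the circZbtb20 knockout had 4 higher and 4 lower, and 2 were higher and 10 lower in the Nr4a1 knockout. Cd44, the hyaluronan receptor, was at 12.61 in circZbtb20-/- cells against 12.90 in circZbtb20+/+ cells, and at 8.03 in Nr4a1-/- cells against 14.31 in Nr4a1+/+ cells. Cd226, an activating receptor that associates with LFA-1, differed by 5.61 in the circZbtb20 comparison and by 2.18 in the Nr4a1 comparison. Alcam, the ligand of CD6, differed by 3.80 and -3.39, with the same opposite signs as Icam1.

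The 13 genes that build selectin ligands had 3 higher and 3 lower in the circZbtb20 knockout, and 1 higher and 5 lower in the Nr4a1 knockout. Tpst2, which sulfates tyrosines such as those PSGL-1 needs, was at 11.31 in circZbtb20-/- cells against 7.20 in circZbtb20+/+ cells, and at 6.55 in Nr4a1-/- cells against 7.81 in Nr4a1+/+ cells. It was thus highest on the array where Selplg was highest. Gcnt1, the enzyme that branches core 2 O-glycans, differed by -0.73 in the circZbtb20 comparison and by -5.41 in the Nr4a1 comparison. The sialyltransferase genes St3gal3 and St3gal6 differed by -3.82 and -2.79 in the Nr4a1 comparison, and by 1.05 and -1.65 in the circZbtb20 comparison.

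Around the sphingosine receptors, 22 genes of the lipid's metabolism and signalling gave 6 higher and 6 lower in the circZbtb20 knockout, and 5 higher and 5 lower in the Nr4a1 knockout. Sgpp1, a phosphatase that degrades sphingosine 1-phosphate, was at 3.72 in circZbtb20-/- cells against 8.14 in circZbtb20+/+ cells, and at 10.69 in Nr4a1-/- cells against 9.23 in Nr4a1+/+ cells. Gna13, the G protein subunit below S1pr2, differed by 1.81 and -4.10, and Arhgef1, the exchange factor that G13 activates, by -1.77 and 2.93, in the circZbtb20 and Nr4a1 comparisons. The pair of genes from 1 signalling arm therefore had opposite signs in each comparison. Plpp3, a lipid phosphatase of vessels, differed by -4.09 in the Nr4a1 comparison. Of 6 genes of shedding and proteolysis, 1 was lower in the circZbtb20 knockout and 2 were higher in the Nr4a1 knockout. Adam10 differed by -1.78 and 1.55, and Adam17, the main sheddase of leukocyte surface proteins, by -0.80 and 1.21.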

How the data were processed

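One table of expression values for 4 arrays was used, 1 array for each genotype. Per the submitters' processing notes, the authors made the deposited log2 values by RMA in Affymetrix Power Tools, with background correction, quantile normalization and probe summary; the sources used here give no versions and no genome build. That the scale is log2 was judged from the values. Quantile normalization hides a change of total RNA per cell, and the relation of the values to RNA abundance was not tested.

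Rows were named through the platform's probe table (19571 of 22205 rows with 1 symbol); the brightest of several rows of a gene was kept. All 42 members matched the RefSeq table, used for names and neighbours. Knockouts were compared by size alone with the wild type that shares their title, with the wild types against each other as background. All 42 members are named; those counted in a knockout comparison have their values on each array, and of each list of other genes up to 4 with the greatest counted difference are named. Values came from Python 3.11.15 with pandas 2.3.3, and the alternative fit from limma 3.58.1 in R 4.3.3, with Benjamini-Hochberg adjustment over all 19504 genes. The rule of size and the fit were tested on simulated data. The members, the 6 lists of other genes, the 16 marker lists (15 with a measured gene) and the alternatives were chosen with earlier results of these data known. The alternatives were the other wild type, the mean of both, 2 other scalings, 2 other filters, the mean of a gene's rows, pairs with a value at the highest value of the table (19.93) left out, a 4-fold size and limma.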

Additional observations from a re-analysis of the deposited data

How the results depend on the processing

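With 1 array for each genotype, low values near the array medians and the choice of wild type limit these results. No paired analysis was possible because each genotype has 1 array. Of the 18 members counted in the circZbtb20 comparison, 11 were counted with a filter at the 75th percentile, 11 at a 4-fold size and 0 by limma. Of the 19 in the Nr4a1 comparison, 12, 10 and 6 were counted in the same order, since these settings ask for more. Over all genes the filter at the 75th percentile counted 18.4% and 20.9%, and the 4-fold size 10.4% and 14.3%, in the circZbtb20 and Nr4a1 comparisons. Against the other wild type 16 of the 18 and 16 of the 19 were still counted. There 7 and 6 others were added, beside 27.1% and 30.5% of all genes counted. Selp then turned to 0.29 in the circZbtb20 comparison and Vcam1 to 0.18 in the Nr4a1 comparison, because the wild types differ in them. The members' median moved to -0.05 against the other wild type in the circZbtb20 comparison. Centring each array on its median moved the medians of the members to 0.13 and 0.00, and those of all genes to 0.14 and 0.17, in the circZbtb20 and Nr4a1 comparisons, so the members' median stayed close to that of all genes in the first and under it in the second. After quantile normalization 18 of the 18 and 17 of the 19 were still counted, beside 26.3% and 28.6% of all genes. Itgb1 and S1pr4 were lost in the Nr4a1 comparison, and Itgav and Itgb1 were added in the circZbtb20 comparison. The mean of a gene's rows and leaving out the table's highest value changed no member, since each has 1 row and none is at that value.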
